A study of Homo sapiens with 6 samples.

Results

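The genes described here are 5 ligands of the bone morphogenetic protein (BMP) family, BMP2, BMP4, BMP5, BMP6 and BMP7, and 5 receptors for BMPs and activins, BMPR1A, ACVR1, ACVR1B, BMPR2 and ACVR2A. They were taken by symbol, 1 row per symbol, and all 10 were found among the 60835 distinct symbols of the deposited count table. All 10 also passed the filter on low counts, as did 15911 genes in all. Polyadenylated RNA came from PANC-1, an established line from a human pancreatic carcinoma of epithelial origin. In all 6 libraries the cells lacked SMAD4 by knockout and had received it again by transfection, as wild type (WT) in 3 libraries and as R272K, with lysine in place of an arginine, in the other 3. The design text places the RNA at day 3. The series concerns methylation of SMAD4 by the arginine methyltransferase PRMT1, and these libraries compare the protein with and without the substituted residue. The sources used here do not say whether the knockout was 1 clone, which vector or promoter carried SMAD4, what share of cells took it up, or whether replicates were separate cultures. P-values therefore measure the spread between these libraries, which may be technical. Knockout cells without reintroduced SMAD4 were not analysed here.

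BMPs are secreted dimers of the transforming growth factor β (TGF-β) superfamily. A dimer brings together type II receptors, which are constitutively active kinases, and type I receptors, which they phosphorylate. The type I receptor then phosphorylates SMAD1, SMAD5 and SMAD9 (BMP branch) or SMAD2 and SMAD3 (activin and TGF-β branch), and these enter the nucleus with SMAD4. In pancreatic ductal cancer SMAD4 is often inactivated, and the pathway acts on differentiation, epithelial state and invasion.

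SMAD4, the reintroduced gene, was measured in every library, though its counts do not tell the WT from the R272K form. On the CPM scale, counts relative to library size after TMM scaling, the WT libraries had 83.4, 93.6 and 89.0 and the R272K libraries 40.6, 45.7 and 43.6. The groups did not overlap, and the log2 fold change of R272K over WT was -1.03 (SE 0.075, adjusted p = 6.28e-06). Endogenous and introduced transcripts are counted together, and their sum was lower in every R272K library than in any WT library. A change tied to the substitution and one tied to the amount of SMAD4 transcript therefore cannot be told apart in any comparison that follows. Total counts lay between 14776148 and 17706201 per library. One library, WT replicate 1, was distant from the rest: principal component 1 placed it at -31.3. WT replicates 2 and 3 lay at -9.56 and -0.135 and the R272K libraries at 11.3 to 15.6, so this component also set the groups apart. Set against the other WT libraries, longer genes had lower values in WT replicate 1. Spearman's rho was -0.41 between log2 ratio and gene length over 15911 genes, which are not independent replicates. Fits without that library are therefore given for several of the genes. Levels that are compared between genes are in TPM, the deposited values scaled for gene length and library size. Of the 8 epithelial and duct markers, KRT8, KRT18 and KRT19 had mean levels of 2420, 1390 and 315 TPM in WT cells and SOX9 had 182 TPM. KRT7, EPCAM and CDH1 were low there, at 7.81, 7.33 and 1.69 TPM, and CDH1 was the 1 marker called, higher with R272K (log2 fold change 1.33, adjusted p = 0.00174). KRT8, SOX9 and EPCAM, with log2 fold changes of 0.32, 0.25 and 0.39, were also above WT in every R272K library, so that 4 of the 8 did not overlap, 0 of them lower. The 8 summed to 4170 to 4650 TPM in WT and 4976 to 5451 TPM in R272K libraries. In the marker lists for fibroblasts, leukocytes and endothelium 1 gene each passed the filter, and in those for acini and islets 0. The summed level was 4.25 to 6.58 TPM in WT and 4.42 to 6.87 TPM in R272K libraries for leukocytes, and 6.47 to 9.04 against 9.11 to 10.2 TPM for fibroblasts, whose tested gene COL3A1 had a log2 fold change of 0.50 (adjusted p = 0.0665). Endothelial markers summed to 2.51 to 4.2 and 2.87 to 3.46 TPM, acinar markers to at most 1.26 TPM and islet markers to at most 0.52 TPM, with SST at 0 in every library. Their part in the results was not tested.

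Promoter sequence from RefSeq (build GRCh38.p14) was found for 8 of the 10 genes, in 13 windows that run from 250 bases before to 50 bases after a start site. BMP2 and BMP7 had no entry. The window of BMP5 and 1 of the windows of ACVR1 are shown because these genes had the smallest p-values on each side, BMP5 higher and ACVR1 lower with R272K. Both are written 5′ to 3′ on the gene's own strand, and the start sites are the gene ends of the deposited table. The BMP5 window is chr6:55875541-55875840 and the ACVR1 window chr2:157876281-157876580, both on the minus strand. Capitals mark matches to any of 4 motifs, searched on both strands, none of which contains another. The motifs are GGCGCC (the GC-rich SMAD box), GTCTAGAC (the palindromic SMAD binding element), CAGAC (the CAGAC box, which shares AGAC with that element) and TATAAA (the TATA box core).
BMP5: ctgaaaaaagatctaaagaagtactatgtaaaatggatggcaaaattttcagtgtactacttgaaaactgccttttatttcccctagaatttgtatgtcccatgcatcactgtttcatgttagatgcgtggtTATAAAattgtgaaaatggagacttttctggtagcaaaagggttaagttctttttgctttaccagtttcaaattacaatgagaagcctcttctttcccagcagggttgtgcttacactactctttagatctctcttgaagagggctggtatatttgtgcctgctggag
ACVR1: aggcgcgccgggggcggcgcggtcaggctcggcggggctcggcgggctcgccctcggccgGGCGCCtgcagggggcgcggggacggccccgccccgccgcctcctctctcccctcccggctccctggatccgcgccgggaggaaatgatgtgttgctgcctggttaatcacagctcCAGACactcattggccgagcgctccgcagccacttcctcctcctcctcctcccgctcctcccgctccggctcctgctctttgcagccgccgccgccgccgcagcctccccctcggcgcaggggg
The windows shown differed widely in composition. BMP5 had 37.3% G or C and 1 CG dinucleotide, and 7.06% of 35116 promoter windows had less G or C. The ACVR1 window shown had 76.3% G or C and 37 CG dinucleotides, and 92.6% of windows had less. Other ACVR1 windows had 52.7% and 48% G or C, with 9 and 3 CG dinucleotides. BMP5 held no match to GGCGCC, GTCTAGAC or CAGAC, and 1 to TATAAA at position -118 from the start site. The ACVR1 window shown held GGCGCC at -190 and CAGAC at -74. The ACVR1 window with 48% G or C held CAGAC at 34, and that with 52.7% held no match. Among all windows, 19.2% held GGCGCC, 0.202% GTCTAGAC, 45.3% CAGAC and 11.5% TATAAA. The window of BMP6 on the same chromosome as BMP5 had 66% G or C, 33 CG dinucleotides and no match to any of the 4. ACVR1B had 4 GGCGCC matches in the window at its first start site, BMPR2 had 1 with 4 CAGAC matches, and BMP4 had 2 GGCGCC matches in 1 of its windows. A match describes these letters only and is not evidence of binding.

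Of the 10 genes, BMP5 was called by edgeR's quasi-likelihood test (adjusted p below 0.05), higher with R272K SMAD4, and 9 were not called. Across all genes tested 1.21% were called. Groups did not overlap for 7 of the 10 genes, against 21.4% of all genes tested. Higher in every R272K library than in any WT library were BMP4, BMP5, BMP6, BMP7 and ACVR1B (5 of 10, against 10.9% of all genes), and lower were BMP2 and ACVR1 (2 of 10, against 10.4%). BMPR1A, BMPR2 and ACVR2A overlapped between groups. With CPM on unscaled library sizes ACVR1B overlapped as well, which left 6. The median log2 fold change was 0.15 over the 10 genes and -0.001 over all genes tested, and 6 of the 10 had an unadjusted p under 0.05, against 14.3% of all genes. These are bulk libraries, in which fewer cells with a transcript and less transcript per cell cannot be told apart.

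BMP5 (ENSG00000112175, chromosome 6, 55753653 to 55875590, minus strand, GRCh38) encodes a ligand of the same subgroup as BMP6 and BMP7. The WT libraries had 27.5, 23.0 and 26.5 CPM, and the R272K libraries 39.1, 39.7 and 38.2 CPM. The lowest R272K library lay well above the highest WT library, and the R272K libraries were close together. The mean rose from 25.7 ± 2.40 to 39.0 ± 0.753 CPM (SD, n = 3 each), a 1.52-fold difference with a log2 fold change of 0.60 (SE 0.085, 95% interval 0.42 to 0.78, adjusted p = 0.00292). By p it ranked 41 among the 15911 genes. The fits that left out 1 library gave log2 fold changes of 0.52 to 0.65, each still called (adjusted p of at most 0.0353). The call was lost with limma on log2(TPM + 1) when no filter on low values was applied (adjusted p = 0.0962), at the same log2 fold change of 0.60.

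BMP6 and BMP7 were also higher in each R272K library, by less, and were not called. BMP8A and BMP8B, related ligands that are near-identical copies of each other and so uncertain in counts, had log2 fold changes of 0.01 and -0.11, neither called, with BMP8B lower in every R272K library (7.25 to 7.43 against 7.53 to 8.32 CPM). They are named after their values were seen. BMP6 (ENSG00000153162, chromosome 6, 7726099 to 7881728, plus strand), which in liver induces hepcidin and has roles in bone and kidney, had 107, 111 and 106 CPM with WT and 120.3, 124 and 119 CPM with R272K. Its log2 fold change was 0.16 (SE 0.061, 95% interval 0.03 to 0.29, adjusted p = 0.238). BMP7 (ENSG00000101144, chromosome 20, 57168753 to 57266641, minus strand), which is needed for kidney development and opposes TGF-β in several epithelia, had 25.8, 24.9 and 24.2 CPM against 28.4, 29.1 and 30.4 CPM. The gap between groups exceeded the spread within each, but the log2 fold change of 0.23 (SE 0.079, 95% interval 0.06 to 0.40) had an adjusted p of 0.207. Without WT replicate 1, BMP6 had 0.16 (adjusted p = 0.055) and BMP7 0.25 (adjusted p = 0.0699), in a fit that called 5.36% of all genes. The interval of BMP5 lay above those of BMP6 and BMP7. The differences between the genes were not tested.

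BMP2 and BMP4 form the other ligand subgroup here, are close relatives in sequence, and both signal mainly through BMPR1A. They lay on opposite sides of no change. BMP4 (ENSG00000125378, chromosome 14, 53949736 to 53958761, minus strand) had 33.1, 30.4 and 29.9 CPM with WT and 33.9, 34.1 and 41.2 CPM with R272K. The groups barely separated, with R272K replicate 3 far above its companions, and the log2 fold change was 0.22 (SE 0.092, 95% interval 0.03 to 0.42, adjusted p = 0.285). Without that library it was 0.13 (adjusted p = 0.675). Without WT replicate 1 it was 0.27 (adjusted p = 0.0516), in a fit that called 5.36% of all genes. BMP2 (ENSG00000125845, chromosome 20, 6767686 to 6780246, plus strand) was the scarcest of the 10 genes, with 50, 50 and 30 counts in the WT libraries and 25, 27 and 27 in the R272K libraries. On the CPM scale these are 2.85, 3.38 and 1.97 against 1.64, 1.80 and 1.76. WT replicate 3 lay near the R272K libraries, and the log2 fold change of -0.65 had a wide error (SE 0.25, 95% interval -1.19 to -0.12, adjusted p = 0.252). Leaving out that library gave -0.84 and leaving out WT replicate 2 gave -0.49, neither called.

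**Figure D1:**
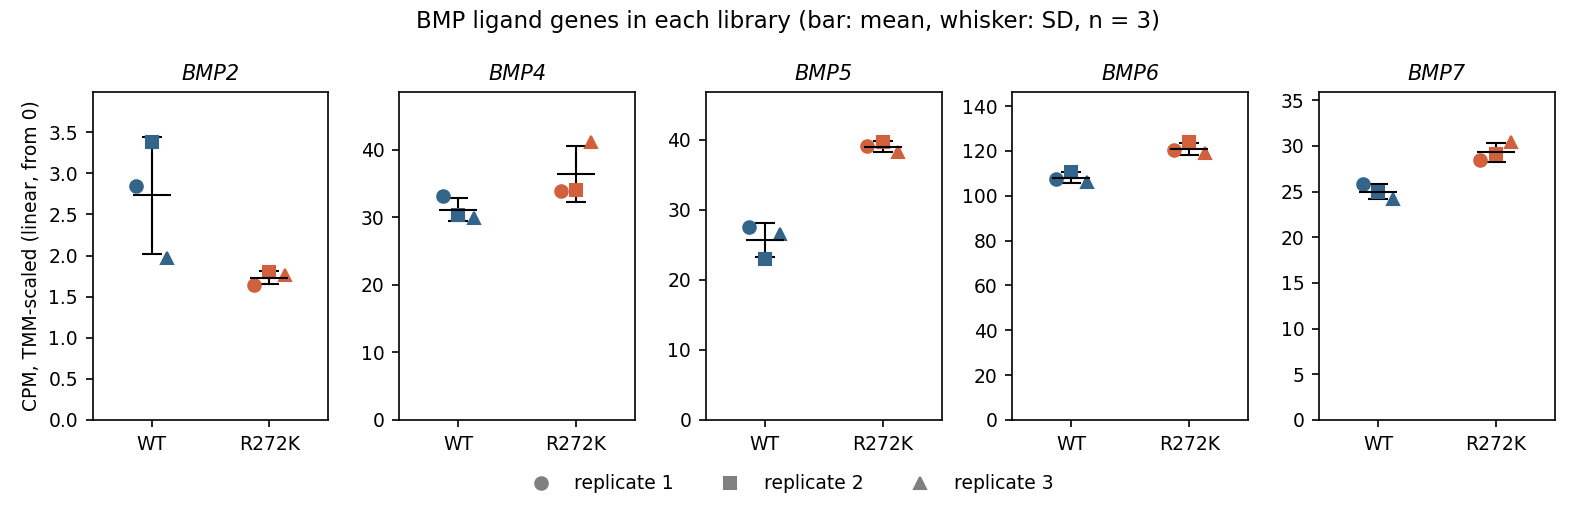
Level of each BMP ligand gene in every library, in CPM on TMM-scaled library sizes (linear axes from 0, 1 panel per gene with its own scale). Points are libraries, bars the mean and whiskers the SD of 3; BMP5 shows the widest gap between groups, 23.0 to 27.5 with WT and 38.2 to 39.7 with R272K, and BMP2 is the ligand that was lower in every R272K library.

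Among the type I receptors ACVR1 had the smallest p. ACVR1 (ENSG00000115170, chromosome 2, 157736251 to 157876330, minus strand), also known as ALK2, is a type I receptor that BMP5, BMP6 and BMP7 can use, and its activating mutations cause fibrodysplasia ossificans progressiva. It had 56.7, 60.0 and 58.8 CPM with WT and 49.3, 48.6 and 51.5 CPM with R272K. Each R272K library lay below each WT library, and the means were 58.5 ± 1.69 and 49.8 ± 1.51 CPM (SD, n = 3 each). The log2 fold change was -0.23 (SE 0.068, 95% interval -0.38 to -0.08), and the adjusted p of 0.14 missed the threshold. It was called without WT replicate 1 (log2 fold change -0.25, adjusted p = 0.0108), a fit in which 5.36% of all genes were called. It was also called with each library's trend with gene length removed (-0.24, adjusted p = 0.033), where 3.73% of all genes were. In the fits without 1 of the other libraries the adjusted p was 0.141 to 0.45.

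BMPR1A (ENSG00000107779, chromosome 10, 86756601 to 86932825, plus strand), or ALK3, is the main type I receptor for BMP2 and BMP4. Its counts summed to 2887 in each group, and its level was 54.9, 65.8 and 62.3 CPM with WT and 64.1, 63.2 and 62.7 CPM with R272K. WT replicate 1 was the low one and the rest overlapped. The log2 fold change was 0.05 (SE 0.077, 95% interval -0.11 to 0.22, adjusted p = 0.796) and -0.02 without WT replicate 1. ACVR1B (ENSG00000135503, chromosome 12, 51951699 to 51997078, plus strand), or ALK4, is the type I receptor for activins and nodal and acts on SMAD2 and SMAD3. It had 41.8, 45.0 and 41.3 CPM with WT and 49.1, 46.5 and 45.1 CPM with R272K. The groups were apart by a small margin, and the log2 fold change was 0.14 (SE 0.073, 95% interval -0.02 to 0.29, adjusted p = 0.429).

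The type II receptors gave no call. BMPR2 (ENSG00000204217, chromosome 2, 202376327 to 202567751, plus strand), whose loss-of-function mutations cause heritable pulmonary arterial hypertension, had 90.7, 118 and 130 CPM with WT and 135.7, 126 and 131 CPM with R272K. WT replicate 1 was the lowest library by a wide margin. The log2 fold change was 0.22 (SE 0.104, 95% interval -0.01 to 0.44, adjusted p = 0.368) with it and 0.08 (adjusted p = 0.461) without it. By the length recovered from the deposited tables BMPR2 was longer than 97.9% of tested genes, and the length trend of that library was given above. ACVR2A (ENSG00000121989, chromosome 2, 147844517 to 147930826, plus strand), a receptor for activins and some BMPs, had 10.7, 10.3 and 13.9 CPM against 11.6, 10.7 and 11.3 CPM. The WT libraries spanned the R272K libraries, and the log2 fold change was -0.06 (SE 0.131, 95% interval -0.34 to 0.23, adjusted p = 0.881), and 0.09 without WT replicate 3. In GENCODE release 29 ACVR2A shares 858 of its 6770 exonic bases with ORC4 on the opposite strand, and since the use of strand in counting is unknown its level is uncertain. ORC4 had 2136 counts over the WT libraries and 2128 over the R272K libraries. No other of the 10 genes shared exonic bases with another gene there, and the rows of BMPR1AP1 and BMPR1AP2, which carry the symbol of BMPR1A, had at most 4 counts in a group.

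**Figure D2:**
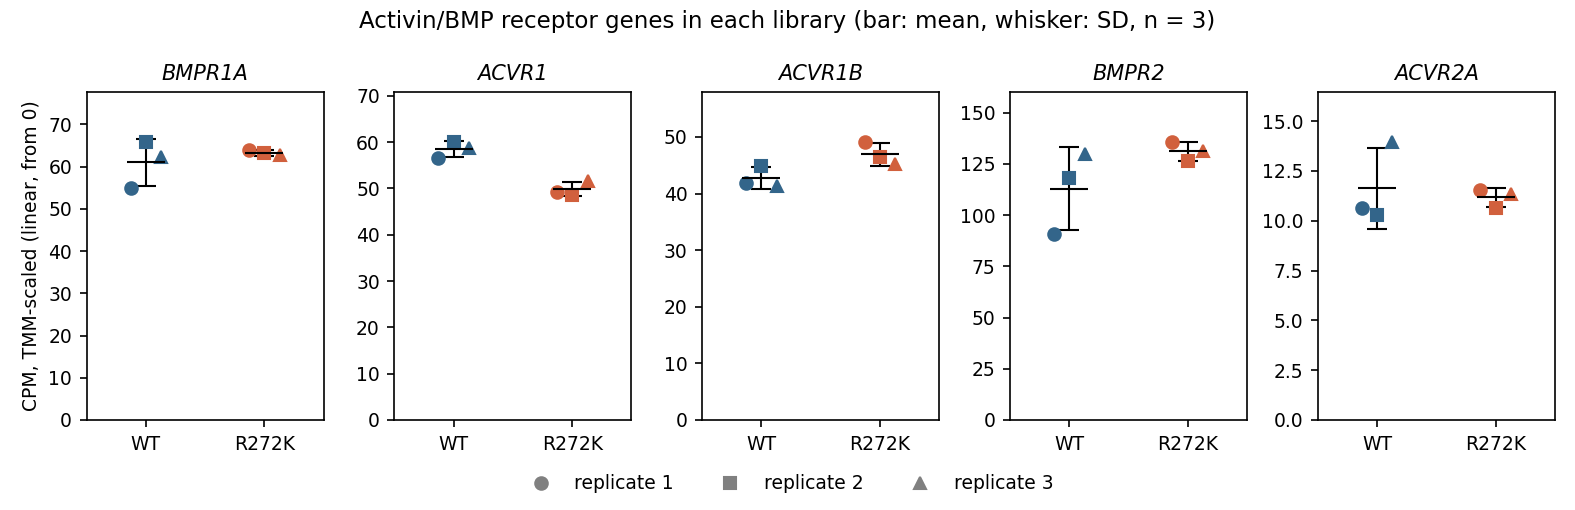
Level of each receptor gene in every library, in CPM on TMM-scaled library sizes (linear axes from 0, 1 panel per gene with its own scale). Points are libraries, bars the mean and whiskers the SD of 3; ACVR1 is lower in every R272K library (48.6 to 51.5 against 56.7 to 60.0), and WT replicate 1 is the lowest library of BMPR1A and BMPR2.

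**Figure D3:**
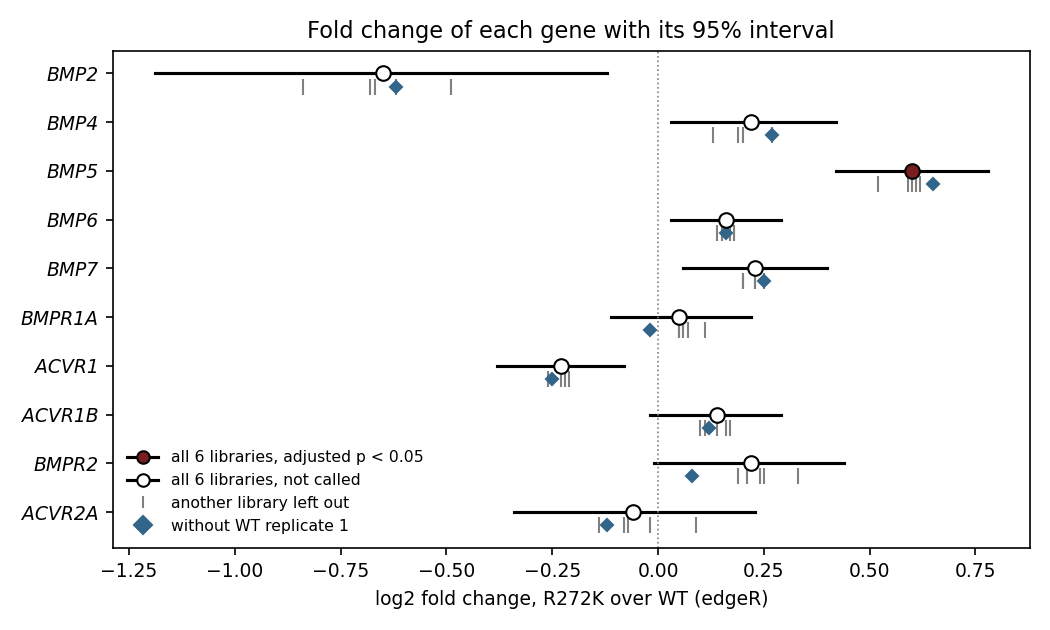
Log2 fold change of R272K over WT for each gene from edgeR (circle, filled where adjusted p is below 0.05) with its 95% interval (line), and below it the fold changes with 1 library left out (ticks; diamond, without WT replicate 1). BMP5 is the filled point, at 0.60, and the diamond of BMPR2 lies at 0.08, far from its circle at 0.22.

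The levels of different genes were compared on the deposited TPM, which divides by gene length. BMP6 had the highest level of the 10, at 88.8 ± 5.07 TPM with WT and 100.8 ± 1.30 TPM with R272K (SD, n = 3 each), followed by BMP4 at 50.04 ± 0.203 and 59.4 ± 7.44 TPM. Both stood clear of the next gene in every library of either group. ACVR1, next at a mean of 38.2 TPM over all libraries, was above BMPR2 in each WT library, whereas the R272K libraries of the pair overlapped. BMPR2 (31.8 TPM), ACVR1B (31.0 TPM) and BMPR1A (30.4 TPM) overlapped in the WT libraries. BMP5 changed its place between groups: with WT it stood at 20.1 ± 1.67 TPM and overlapped BMP7 (19.3 ± 0.429 TPM), and with R272K it stood at 30.9 ± 0.258 TPM and overlapped BMPR1A (31.1 ± 0.319 TPM). BMP7 was at 23.0 ± 1.03 TPM with R272K. ACVR2A (6.86 TPM over all libraries) and BMP2 (1.96 TPM) were lowest and separate from each other and from the rest.

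**Figure D4:**
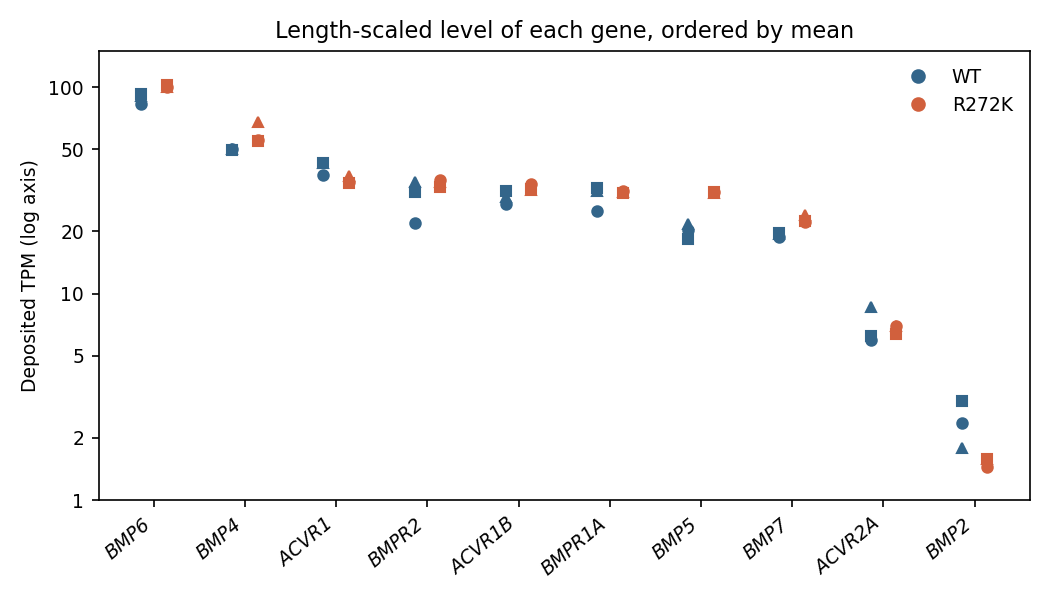
Deposited TPM of each gene in every library on a log axis, genes ordered by their mean. Circles, squares and triangles are replicates 1, 2 and 3; BMP6 and BMP4 lie above the others, BMP2 lies lowest at 1.45 to 3.02 TPM, and BMP5 moves from 18.3 to 21.6 TPM with WT to 30.7 to 31.2 TPM with R272K.

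As shares of the summed TPM of the 5 ligands, a measure that does not depend on library scaling, BMP6 made up 49.2% ± 1.503 with WT and 46.8% ± 1.88 with R272K (SD, n = 3 each). BMP4 was at 27.7% ± 0.885 and 27.5% ± 2.41, and BMP7 at 10.7% ± 0.088 and 10.7% ± 0.0821. BMP5 took 11.6%, 9.99% and 11.8% in the WT libraries and 14.8%, 14.7% and 13.7% in the R272K libraries, without overlap. BMP2 took 0.976% to 1.64% with WT and 0.693% to 0.744% with R272K. The sum itself was 174.8 to 183.7 TPM with WT and 209.6 to 224.6 TPM with R272K. Of the 3 type I receptors together, ACVR1 made up 41.8%, 40.1% and 41.3% with WT and 34.8%, 35.3% and 37.1% with R272K. The ratio of ACVR1 to ACVR1B, the activin-type receptor, was 1.36 to 1.45 in the WT libraries and 1.03 to 1.17 in the R272K libraries. That of ACVR1 to BMPR1A, which is also a BMP receptor, was 1.32 to 1.495 and 1.11 to 1.19. The lower share of ACVR1 was thus not one of BMP receptors as a class. BMPR2 supplied 80.7% ± 2.37 of the TPM of the pair of type II receptors with WT and 83.5% ± 0.156 with R272K. These shares are descriptions, and no test was made of them.

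The genes whose levels over the 6 libraries were most like those of BMP5 were found by the root mean square difference of log2 CPM, each gene centred on its own mean, over 14493 other genes with a mean of at least 1 CPM. The nearest were the chemokine gene CXCL1 (0.058), LINC02575 (0.062) and the netrin receptor gene UNC5C (0.068), where the median gene differed by 0.339. CXCL1 had 213, 179.8 and 187.5 CPM with WT and 276.5, 289 and 276 CPM with R272K. UNC5C had 6.73, 6.42 and 6.68 CPM against 9.72, 10.1 and 9.32 CPM. These genes were chosen for likeness to BMP5 over the same libraries. That WT replicate 2 was the lowest library of each, as for BMP5, is therefore no separate finding. The same holds for the closeness of their R272K libraries.

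Around the 10 genes, 8 lists of the same pathway held 105 genes, of which 69 passed the filter. None of the 69 was called by edgeR on all 6 libraries. At an unadjusted p under 0.05 there were 18 of them, where 14.3% of all genes were. DESeq2 called 2 of them and 279 genes in all, limma-voom 0 and 189, and 19 of the 69 (27.5%) did not overlap between groups, against the 21.4% of all genes given above. Without WT replicate 1, 8 of them were called, in the fit that called 875 genes (5.36%). The SMAD and receptor regulator list had 19 of 19 genes tested and a median log2 fold change of 0.05. Its most abundant members were FKBP1A, which holds type I receptors inactive, at 1320 CPM in WT and 1204 CPM in R272K cells (log2 fold change -0.13, adjusted p = 0.399), and SMAD3 at 487 and 526 CPM (0.11, adjusted p = 0.439).

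Other ligands were mostly scarce: 7 of 20 listed BMP and GDF genes were tested, and BMP10, GDF1 and LEFTY1 had no count in any library. GDF15, a stress-induced member, was by far the most abundant, with means of 708 ± 71.9 CPM for WT and 572 ± 30.7 CPM for R272K, without overlap (SD, n = 3 each, log2 fold change -0.31, adjusted p = 0.0754). AMH, the anti-Müllerian hormone gene, had 17.7 and 14.7 CPM (-0.27, adjusted p = 0.324). Of the 5 activin and inhibin subunit genes 2 were tested. INHBB stood at 72.3 and 80.4 CPM (0.15, adjusted p = 0.306) and INHBA at 4.41 and 3.07 CPM (-0.53, adjusted p = 0.31). Per length, the activin B subunit gene INHBB was at 70.01 TPM and the activin A subunit gene INHBA at 2.25 TPM in WT cells.

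Among 7 other receptor genes 5 were tested, led by TGFBR2 at 167 and 178 CPM (0.09, adjusted p = 0.571) and TGFBR1 at 48.6 and 57.5 CPM (0.24, adjusted p = 0.208), the type II and type I receptors for TGF-β. The co-receptor list had 5 of 8 tested, with ENG, the gene of endoglin, at 17.8 and 16.6 CPM (-0.10, adjusted p = 0.68) and RGMB, a BMP co-receptor, at 15.3 and 16.8 CPM (0.14, adjusted p = 0.548). Secreted antagonists had 10 of 19 tested and a median of 0.12. CRIM1, which binds BMPs at the cell surface, had 429 and 508 CPM (0.24, adjusted p = 0.134) and NBL1, of the DAN family, 72.2 and 79.1 CPM (0.13, adjusted p = 0.519). WT replicate 1 was the lowest library of CRIM1, at 383 CPM against 450 and 455 CPM in the other WT libraries. It was also the lowest of TGFBR1, at 42.4 CPM against 52.6 and 50.9 CPM. Of the proteases that cut BMP precursors or chordin, 5 of 7 were tested, and FURIN had 81.8 and 94.2 CPM (0.20, adjusted p = 0.151) and PCSK6 33.9 and 36.5 CPM (0.11, adjusted p = 0.559).

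Target genes of BMP and SMAD signalling, 16 of 20 tested, had a median log2 fold change of -0.17. HES1, a repressor that Notch also induces, had 62.0 and 44.1 CPM (-0.49, adjusted p = 0.0583). Its WT libraries had 75.9, 58.5 and 51.6 CPM, so that WT replicate 1 raised the WT mean. ID1, a direct target that inhibits basic helix-loop-helix factors, had 24.9 and 24.2 CPM (-0.04, adjusted p = 0.864). Of the 16, 4 were lower in every R272K library (HES1, MSX2, GATA3 and GATA6) and 0 higher, where 10.4% of all tested genes were lower and 10.9% higher without overlap. MSX2, GATA3 and GATA6 are named after their values were seen, and their adjusted p-values lay between 0.107 and 0.262. In the other lists the genes higher and lower without overlap were 1 and 2 (BMP and GDF ligands), 1 and 0 (activin subunits) and 1 and 1 (receptors). They were 2 and 0 for co-receptors, 1 and 0 each for antagonists and proteases, and 3 and 2 for SMADs and receptor regulators. The lists' medians differed in sign, from -0.19 for the 2 activin genes to 0.12 for the antagonists, beside -0.001 for all genes.

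**Figure D5:**
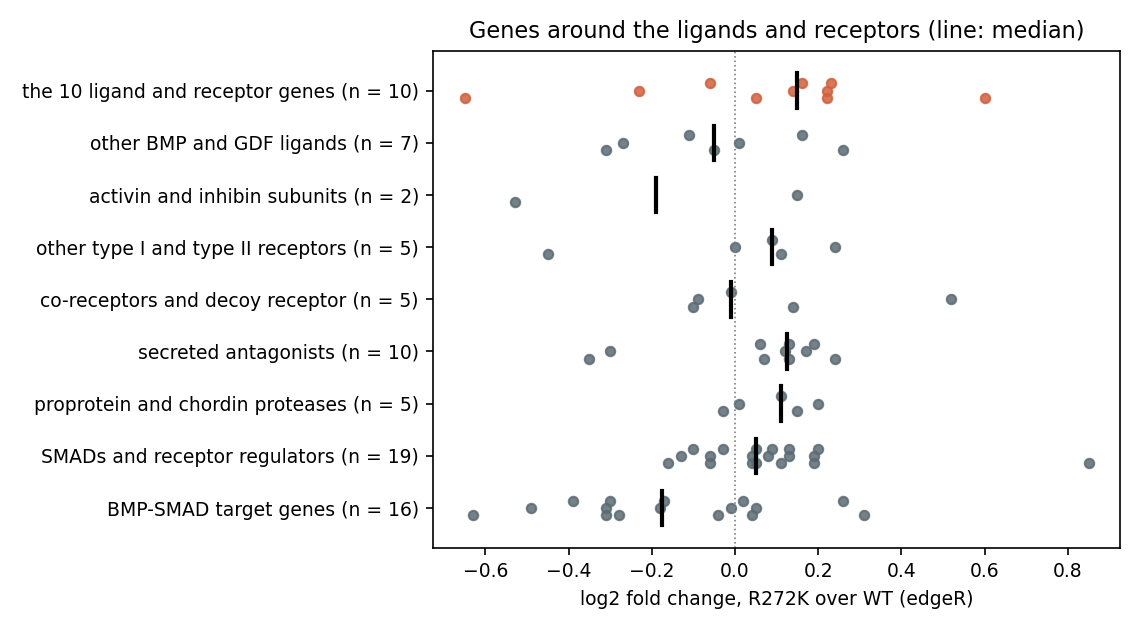
Log2 fold change of R272K over WT (edgeR) for the 10 ligand and receptor genes and for the tested genes of 8 pathway lists; each point is a gene and the line is the list's median. Medians lie between -0.19 and 0.15, the antagonists at 0.12 and the target genes at -0.17.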

How the data were processed

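Unnormalized counts and TPM, listed by gene symbol, were deposited by the authors. The submitters' processing notes name HTSeq 0.10.0, HISAT2 2.1.0, fastp 0.23.0, SAMtools and build GRCh38; settings, annotation and use of strand: not given in the sources used here. Symbols with several identifiers repeated 1 value, and each of the 60835 symbols was used once. The deposited TPM are the same counts divided by a gene length, which was recovered from their ratio.

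Genes passing filterByExpr (minimum count 10, minimum total 15) were tested with edgeR 4.0.16 (R 4.3.3), TMM scaling and its two-sided quasi-likelihood test (robust), fitting group alone to the 6 libraries. Benjamini-Hochberg adjustment covered all 15911 genes, and an adjusted p below 0.05 was called. The SE is the log2 fold change over the square root of F, and 95% intervals use the test's degrees of freedom. The code was tested on simulated data. DESeq2 1.42.0, limma 3.58.1 (voom, or log2 of TPM plus 1 or 0.1), other scalings and filters, a replicate term, removal of each library's lowess trend with length and omission of each library were alternatives. Python 3.11.15 drew the figures.

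The 10 genes, the lists and the rule for named genes (the 10 genes, SMAD4, called genes and the 2 most abundant tested genes of each list, and the 3 genes most alike to a called member) were chosen with earlier results of these data known. Genes named outside it are marked so, or given as checks or counts. Chi-square per degree of freedom between libraries of a group was 1.85 or more, so no library was a copy of another. This value cannot tell separate cultures from repeated preparations of the same culture.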

Additional observations from a re-analysis of the deposited data

How the results depend on the processing

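BMP5 was called in 17 of 18 alternatives, with log2 fold changes of 0.52 to 0.65. The exception was limma on log2(TPM + 1) with no filter, which called 0 of the 10 genes and 37 genes in all. The other 9 genes kept their direction in every alternative except BMPR1A, which ranged from -0.02 (without WT replicate 1) to 0.11 with 1 library left out, and ACVR2A, from -0.14 to 0.09 (without WT replicate 3); ACVR1 was the only one of them called in any. Removing the length trend gave 2 of the 10 genes (BMP5 and ACVR1), 3 pathway genes and 594 genes in all. The total over all genes, 193, was 474 with no filter, 104 and 101 with limma on log2(TPM + 1) and log2(TPM + 0.1), and 55 to 875 with 1 library left out; the cause was not tested. The same omissions called 1 to 2 of the 10 genes and 0 to 8 pathway genes, the highest values each time without WT replicate 1. Pathway calls, 0 otherwise, were 1 by library size only, 4 with no filter, and 2 with DESeq2 or the replicate block. The replicate block called 262 genes in all and BMP5 alone among the 10, but same-numbered libraries did not deviate together (correlations -0.065, -0.00715 and -0.012). On 2 scales chosen after seeing the data, 7 of the 10 genes (TPM) and 6 (library size only) did not overlap. BMP2 had the fewest counts of the 10 genes (25 to 50 per library) and the largest SE (0.25).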
